A study of Drosophila melanogaster with 32 samples.

Results

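The genes described here encode translation factors and aminoacyl-tRNA synthetases. They were taken by name from the gene names of 7 lists of edited sites in Drosophila S2 cells: every name that begins with eIF, Ef1, eEF, EfTu, Ef2 or Aats-. The rule found 44 of 5181 gene names, namely 27 translation factor genes and 17 synthetase genes, whose older symbols begin with Aats-. Together they held 268 of the 33835 distinct sites, of which 169 lay in factor genes and 99 in Aats- genes. The rule reads capital letters as written, so EF2, the translocase of elongation, fell outside it, as did subunits and synthetases that the files name by a CG number.

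Translation starts when initiation factors bring the small ribosomal subunit, the initiator tRNA and the capped messenger RNA together. Elongation factors then deliver charged tRNAs to the ribosome, and each aminoacyl-tRNA synthetase joins an amino acid to its tRNA. These messengers are made in every growing cell, and several encode very abundant proteins.

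The study expressed fusions of an RNA-binding protein and the catalytic domain of ADAR, an enzyme that turns adenosine into inosine, which sequencing reads as guanosine. Edited adenosines therefore mark transcripts that the fusion reached, an approach called TRIBE. The series' design text gives as its purpose the use of the E488Q change, reported to raise ADAR activity, against false negatives. HyperTRIBE is the version with that change.

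The lists come from 7 of the 32 samples of the series, all from S2 libraries. Hrp48 TRIBE carried the RNA-binding protein Hrp48, an hnRNP protein, on the catalytic domain without E488Q (2 libraries). Hrp48 HyperTRIBE carried Hrp48 on the E488Q domain (2 libraries), and the deaminase-alone libraries expressed the E488Q domain with no RNA-binding protein (2 libraries). FMRP HyperTRIBE carried FMRP, a translational regulator, on the E488Q domain (1 library, replicate 1). All were S2 cells transfected transiently, induced with CuSO4 and sorted by fluorescence, and their poly(A) RNA was sequenced. FMRP HyperTRIBE replicate 2, untransfected cells and the other samples were not analysed here. Nothing in the labels ties a replicate to its own culture, so p-values measure only the spread between these libraries, which may be technical.

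The lists hold sites with at least 20 reads and at least 10% of reads edited, the lowest values seen in them. Absence from a list can mean low coverage, weaker editing or no editing, and no 0 was filled in. The libraries held 13 to 22803 sites over all genes and 559 to 979818 reads at those sites. The first deaminase-alone library listed 13 sites in all and the second 459. The largest read number at any site was 108 to 149 per library, so read numbers are not expression levels. Per the file headers, the first Hrp48 TRIBE and first Hrp48 HyperTRIBE libraries share a library number and the second ones share another. Each deaminase-alone library and the FMRP library has a library number of its own, so construct and library number cannot be told apart there. Of the fixed marker names, 8 of 10 hemocyte and matrix names, 1 of 7 neuronal names (brp) and 0 of 3 muscle names had a listed site. The neuronal names include n-syb and nSyb, spellings of the same gene. The hemocyte names without a site were Hml and Pxn.

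The members had more listed sites with Hrp48 HyperTRIBE than with Hrp48 TRIBE or the deaminase alone, as did the lists as a whole. The factor genes held 135 and 89 sites in the 2 Hrp48 HyperTRIBE libraries, 12 and 6 with Hrp48 TRIBE, 1 and 7 with the deaminase alone, and 44 with FMRP HyperTRIBE. The Aats- genes held 60 and 63, 3 and 0, 1 and 1, and 38 sites in the same order of libraries. Both Hrp48 HyperTRIBE libraries lay above every Hrp48 TRIBE and deaminase-alone library in both gene groups. The ratio of means to Hrp48 TRIBE was 12.4 for factor genes (112 ± 32.5 against 9.0 ± 4.24 sites, SD, n = 2 each) and 41.0 for Aats- genes (61.5 ± 2.12 against 1.5 ± 2.12), beside 16.03 for the sites of all genes. For Aats- genes the ratio was 20.5 without the second TRIBE library, and without the first, which held all 3 TRIBE sites, there was none to form. Against the deaminase alone the ratio was 28.0 for factor genes, 112 without the second deaminase-alone library and 16 without the first, and 61.5 for Aats- genes, beside 90.1 for all genes. The difference between members and all genes was not tested. Two-sided exact permutation tests on log10(sites + 1) gave p = 0.33 in all 4 comparisons, the smallest value that 2 libraries against 2 allow.

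**Figure D1:**
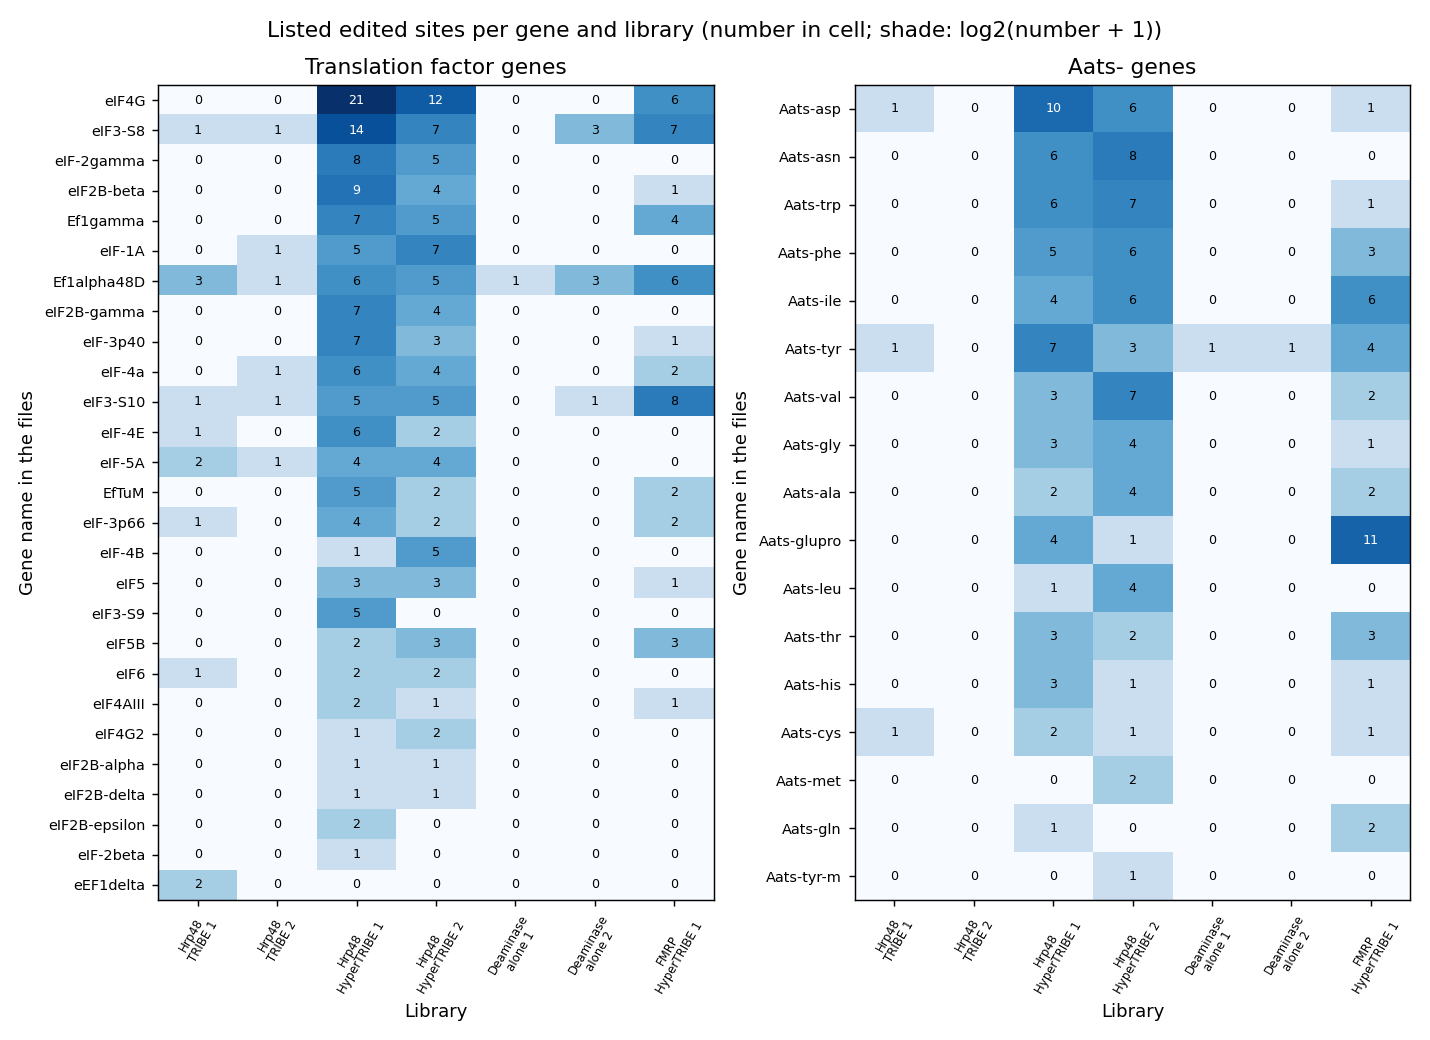
Number of listed edited sites for each of the 27 translation factor genes (left) and 17 Aats- genes (right) in each of the 7 libraries, 1 column per library; the shade follows log2(number + 1). eIF4G has the darkest cell, 21 sites in the first Hrp48 HyperTRIBE library, and Aats-glupro has its 11 sites with FMRP HyperTRIBE.

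By gene, 23 of 27 factor genes and 13 of 17 Aats- genes had more sites in both Hrp48 HyperTRIBE libraries than in either Hrp48 TRIBE library, beside 67.6% of 5144 genes of all kinds. Listed sites were found with Hrp48 HyperTRIBE in 26 of 27 factor genes and 17 of 17 Aats- genes, near the 98.7% of 5181 genes of all kinds. With Hrp48 TRIBE they were found in 10 factor genes and 3 Aats- genes, beside 25.1% of all genes, and with the deaminase alone in 3 and 1, beside 5.54%. With FMRP HyperTRIBE they were found in 13 of 27 and 13 of 17, beside 38.7%. Both Hrp48 HyperTRIBE libraries had more sites than the FMRP library in 16 of 26 factor genes and 7 of 17 Aats- genes, beside 61.1% of 5150 genes. The exception among the factors was eEF1delta, a subunit of the complex that recharges the elongation factor 1 alpha, which was listed only in the first Hrp48 TRIBE library, at 13.3% of 45 reads and 10.3% of 39 reads.

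The factor genes had uneven numbers of sites in the 2 Hrp48 HyperTRIBE libraries. The first library had more sites than the second in 16 of 26 factor genes, beside 32.1% of 5113 genes, and fewer in 4, beside 51.7%. The Aats- genes had more in the first library in 7 genes and more in the second in 10. eIF3-S9, a core subunit of eIF3, had 5 sites and 0, and eIF2B-epsilon, the catalytic subunit of eIF2B, had 2 and 0. These 2 genes were picked after their values were seen.

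**Figure D2:**
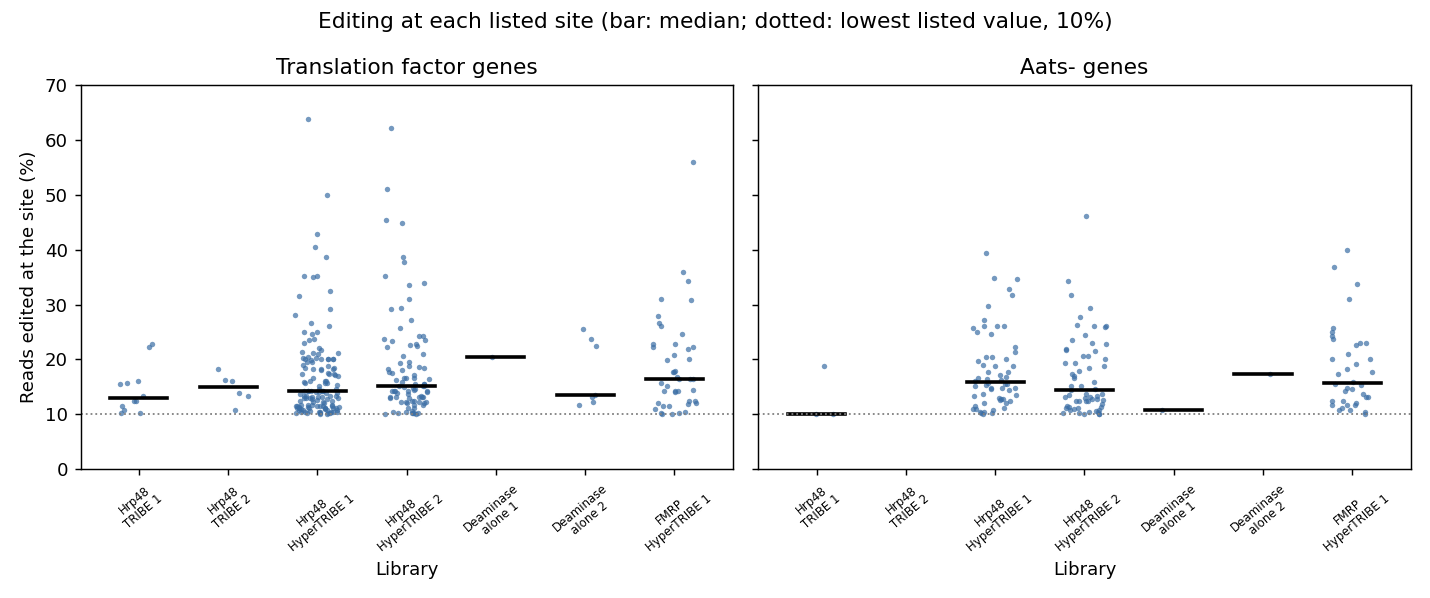
Percent of reads edited at each listed site of the translation factor genes (left) and Aats- genes (right) in each library; points are sites, bars are medians and the dotted line is 10%, the lowest listed value. Medians of the Hrp48 and FMRP HyperTRIBE libraries lie between 14.3% and 16.5%, and few sites exceed 40%.

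Editing at the listed sites was low in most cases, near the listing minimum. In the 2 Hrp48 HyperTRIBE libraries the median was 14.3% and 15.2% of reads for factor genes, with 57 and 68 median reads, and 15.9% and 14.5% for Aats- genes, with 54.5 and 60 reads. With FMRP HyperTRIBE it was 16.5% (95% interval 14.3 to 20.2%) for factor genes at 91 median reads and 15.7% (13.2 to 20%) for Aats- genes at 43.5 reads. The sites of all genes had medians of 15.4%, 15.5% and 15% in these 3 libraries, at 33, 37 and 31 median reads. With Hrp48 TRIBE the factor medians were 12.9% (12 sites, 52 reads) and 14.9% (6 sites, 63.5 reads), beside 14.3% and 14.3% for all genes. With the deaminase alone they were 20.4% (1 site) and 13.5% (7 sites, 73 reads), beside 16.7% and 14.3%. Aats- genes had 10% (3 sites) and no site with Hrp48 TRIBE, and 10.7% and 17.4% (1 site each) with the deaminase alone. Since each list starts at 10%, these medians cover different sites and were not tested.

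The eIF4 genes act around the cap, where the 5′ end of the messenger is joined to the small subunit. The 6 genes with an eIF4 name had 37 and 26 sites with Hrp48 HyperTRIBE, counted over whole genes. They had 1 each in the TRIBE libraries, 0 and 0 with the deaminase alone and 9 with FMRP HyperTRIBE. eIF4G, the scaffold that holds the cap-binding protein and the helicase, led with 21 and 12 sites on chromosome 4, of which 11 were shared by the 2 libraries, and 6 sites with FMRP HyperTRIBE. It had none with Hrp48 TRIBE or the deaminase alone.

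The most edited eIF4G site, at position 941442 of chromosome 4 (exon, minus strand; positions are those of the dm3 build as the files give them), had 40.5% of 37 reads and 37.8% of 37 reads in the 2 Hrp48 HyperTRIBE libraries and was not listed with FMRP. At position 938017 editing was 21.7% and 22.5% with Hrp48 HyperTRIBE and 28.0% with FMRP HyperTRIBE. At position 938130 it was 23.5%, 35.1% and 21.9%. The eIF4G sites spread over 14471 bases of the genome, and the other 5 genes of the group had at most 6 sites in a library.

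eIF-4a, the helicase that opens the 5′ end of the messenger, had 6 and 4 sites with Hrp48 HyperTRIBE. Its site at 5985713 of chromosome 2L had 13.9% in the second Hrp48 TRIBE library, 32.4% and 21% with Hrp48 HyperTRIBE. eIF-4E, which binds the cap, had 6 and 2 sites, and its site at 9392980 of chromosome 3L had 16.1% in the first Hrp48 TRIBE library, 35.3% and 18.7% with Hrp48 HyperTRIBE. In both genes the HyperTRIBE values lay above the single TRIBE value, while the 2 HyperTRIBE libraries differed from each other. At shared sites of all genes, HyperTRIBE was above TRIBE at 71.9% of 844 between the first libraries and 84.6% of 1107 between the second. eIF4AIII, the helicase of the exon junction complex, had 2 and 1 sites, eIF-4B, a cofactor of eIF4A, 1 and 5, and eIF4G2, a relative of eIF4G, 1 and 2, the last overlapping CG33111.

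eIF3, the large complex that holds the small subunit ready for messenger and initiator tRNA, had 35 and 17 sites in 5 genes with Hrp48 HyperTRIBE, 3 and 2 in the TRIBE libraries, 0 and 4 with the deaminase alone and 18 with FMRP HyperTRIBE. eIF3-S8, the subunit now named eIF3c, had 14 and 7 sites with Hrp48 HyperTRIBE, 7 with FMRP and 3 in the second deaminase-alone library. eIF3-S10, now eIF3a, had 5 and 5 sites with Hrp48 HyperTRIBE, 8 with FMRP and 1 in the second deaminase-alone library. It was the only factor gene with more sites with FMRP than in either Hrp48 library. For comparison, 3.24% of 5150 genes of all kinds had that pattern. eIF-3p40, now eIF3h, had 7 and 3 sites and 1 with FMRP, and eIF-3p66, now eIF3d1, had 4 and 2, with 1 in the first TRIBE library and 2 with FMRP.

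eIF2 carries the initiator tRNA to the small subunit. In the other lists, the eIF2 and eIF2B genes found by the name rule had 1 site, in eIF2B-beta with FMRP. Both Hrp48 HyperTRIBE libraries listed that site too. eIF-2gamma, the subunit that binds GTP and the initiator tRNA, had 8 and 5 sites with Hrp48 HyperTRIBE and 0 in every other library. Of its 10 sites, 7 were marked intronic and 7 also carry the name Su(var)3-9, a gene at the same locus, so reads of the 2 genes may not be separable at those positions. The 5 subunits of eIF2B, which reloads eIF2 with GTP, had 20 and 10 sites with Hrp48 HyperTRIBE and 1 with FMRP. eIF2B-beta had 9 and 4 of them, eIF2B-gamma 7 and 4, and eIF2B-alpha and eIF2B-delta 1 and 1 each. eIF-2beta had 1 and 0 sites. eIF-1A, which guides scanning for the start codon, had 5 and 7, with 1 in the second TRIBE library and none with FMRP.

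The factors of the last steps of initiation had few sites. eIF5, the GTPase activator of eIF2, had 3 and 3 with Hrp48 HyperTRIBE and 1 with FMRP, and eIF5B, which joins the subunits, had 2 and 3, and 3 with FMRP. eIF6, which keeps the large subunit free, had 2 and 2 and 1 in the first TRIBE library, all overlapping ytr.

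In eIF-1A the site at position 14108333 of chromosome 3R had 16% of 25 reads in the second Hrp48 TRIBE library and 50% of 44 and 51.1% of 47 reads with Hrp48 HyperTRIBE. Both HyperTRIBE values were above the single TRIBE value and close to each other. At shared sites of all genes, the second HyperTRIBE library was above the second TRIBE library at 84.6% of 1107.

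The elongation factor genes included the most edited of the 268 member sites. Ef1alpha48D, which delivers charged tRNA to the ribosome, had 6 and 5 sites with Hrp48 HyperTRIBE, 3 and 1 in the TRIBE libraries, 1 and 3 with the deaminase alone and 6 with FMRP HyperTRIBE. Its site at position 7782933 of chromosome 2R (plus strand, exon) was the only one of the 268 listed in all 7 libraries. It had 22.8% and 16.2% of reads edited with Hrp48 TRIBE, 63.7% and 62.1% with Hrp48 HyperTRIBE, 20.4% and 25.6% with the deaminase alone and 55.9% with FMRP HyperTRIBE, at 101 to 124 reads per library. Both fusions with E488Q stood apart from the TRIBE and deaminase-alone values, which overlapped.

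At position 7782263 Ef1alpha48D had 15.5% in the first Hrp48 TRIBE library, 38.6% and 38.6% with Hrp48 HyperTRIBE and 35.9% with FMRP HyperTRIBE. At 7782763 it had 28.1% and 33.9% with Hrp48 HyperTRIBE, 13.5% in the second deaminase-alone library and 19.8% with FMRP. At 7782887 it had 15.7% in the first Hrp48 TRIBE library, 11.3% and 16.4% with Hrp48 HyperTRIBE and 10% with FMRP. There the Hrp48 HyperTRIBE values lay on both sides of the TRIBE value. The position 7782921 was listed only with the deaminase alone, at 22.4% of 116 reads. Ef1gamma, another subunit of the same recharging complex, had 7 and 5 sites with Hrp48 HyperTRIBE and 4 with FMRP, all 4 shared by the 3 libraries. EfTuM, now mEFTu1, the mitochondrial elongation factor, had 5 and 2 sites, all overlapping mip120.

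eIF-5A, a factor that acts in elongation and is now named eEF5, had 4 and 4 sites with Hrp48 HyperTRIBE, 2 and 1 in the TRIBE libraries and none in the other libraries. The site at position 19946848 of chromosome 2R had 22.3% and 13.3% of reads edited in the TRIBE libraries, below the 31.6% and 33.6% of the HyperTRIBE libraries. The groups did not overlap, as at 60.7% of the 298 sites of all genes listed in every Hrp48 library.

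The member sites listed in all 4 Hrp48 libraries numbered 4, all in factor genes, and could be tested within 298 such sites of all genes. limma on log2((edited + 0.5)/(unedited + 0.5)), a log2 odds scale, with Benjamini-Hochberg adjustment over the 298 sites, called 3 of the 4 higher with HyperTRIBE, beside 27.9% of the 298, and 0 lower, beside 0.0%. Both HyperTRIBE values were above both TRIBE values at 4 of 4, beside 60.7%. The Ef1alpha48D site changed most, by 2.79 ± 0.58 log2 odds (SE, adjusted p = 0.000193). The eIF3-S10 site at 255772 of chromosome 3R had 11.5% and 18.2% with TRIBE and 42.9% and 44.9% with HyperTRIBE (2.08, adjusted p = 0.00419). The eIF3-S8 site at 13554076 of chromosome 2R had 12.5% and 10.8% against 35.1% and 24.3% (1.59, adjusted p = 0.0273). The same eIF3-S8 site had 12.3% of 73 reads in the second deaminase-alone library and 31% of 100 reads with FMRP HyperTRIBE. The eIF-5A site missed the threshold with 1.18 (95% interval 0.04 to 2.32, adjusted p = 0.112). Leaving out either HyperTRIBE library left 0 of the 4 called, beside 0.336% of the 298 in each case. The Ef1alpha48D estimate was then 2.74 without the first and 2.84 without the second, that of eIF3-S10 2.14 and 2.02 and that of eIF3-S8 1.22 and 1.96, while the SE rose to 0.89. Leaving out the first TRIBE library left 4 called, beside 57.4%, and leaving out the second left 3, beside 27.2%; the lone library is then taken to vary like the others. Within library numbers, the first HyperTRIBE library was above the first TRIBE library at 9 of 10 shared member sites, beside 71.9% of all genes' sites, and the second above the second at 6 of 6, beside 84.6%.

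**Figure D3:**
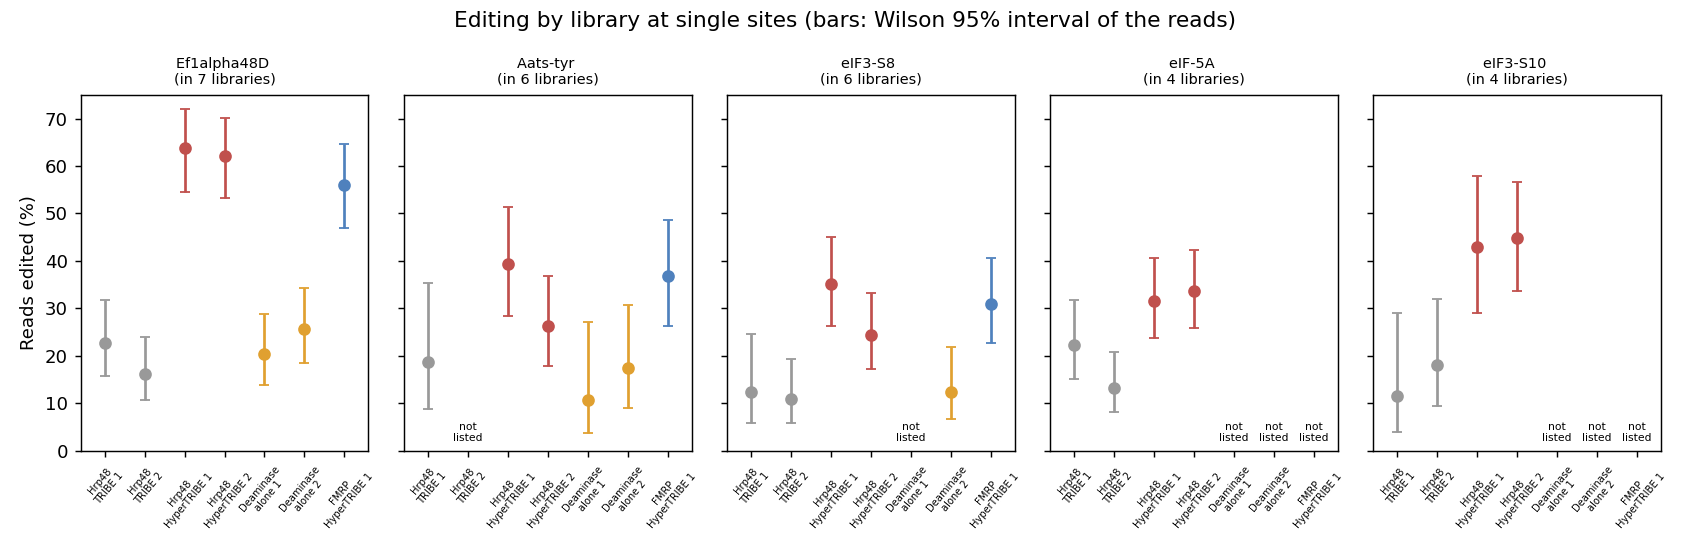
Percent of reads edited in each of the 7 libraries at the 5 member sites listed in all 4 Hrp48 libraries or in 5 or more libraries, with Wilson 95% intervals of the reads. Grey is Hrp48 TRIBE, red Hrp48 HyperTRIBE, orange the deaminase alone and blue FMRP HyperTRIBE; in Ef1alpha48D the 3 HyperTRIBE libraries lie at 55.9% to 63.7% and the 4 others at 16.2% to 25.6%.

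The synthetase genes with most sites in both Hrp48 HyperTRIBE libraries were Aats-trp (6 shared sites, 6 and 7 in all), Aats-asn (5) and Aats-asp (5), the enzymes for tryptophan, asparagine and aspartate. Aats-asn had 6 and 8 sites with Hrp48 HyperTRIBE and none in any other library. Aats-asp had 10 and 6, with 1 each in the first TRIBE library and with FMRP. At position 8770592 of chromosome 2R it had 34.8% and 34.2% with Hrp48 HyperTRIBE and was not listed elsewhere.

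Aats-tyr, for tyrosine, was the one synthetase gene listed with the deaminase alone. Its site at position 16411383 of chromosome 3L had 18.8% of 32 reads in the first Hrp48 TRIBE library, 39.4% and 26.2% with Hrp48 HyperTRIBE, 10.7% of 28 and 17.4% of 46 reads with the deaminase alone and 36.8% with FMRP HyperTRIBE. The Hrp48 HyperTRIBE and FMRP values lay above the others. Neither this site nor any other of an Aats- gene was listed in all 4 Hrp48 libraries, so no synthetase site entered that fit.

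Aats-phe, Aats-leu and Aats-met carry the current symbols PheRS-m, LeuRS-m and MetRS-m, of mitochondrial enzymes, as does Aats-tyr-m (TyrRS-m). Aats-phe had 5 and 6 sites with Hrp48 HyperTRIBE and 3 with FMRP, while Aats-leu had 1 and 4, Aats-met 0 and 2 and Aats-tyr-m 0 and 1, and none of these 3 was listed with FMRP. Aats-val had 3 and 7 sites, Aats-gly 3 and 4 and Aats-ile 4 and 6, and with FMRP they had 2, 1 and 6. Aats-ala had 2 and 4, Aats-thr 3 and 2, Aats-his 3 and 1, all overlapping Bx, and Aats-cys 2 and 1, with 2, 3, 1 and 1 sites with FMRP. Aats-cys also had 1 site in the first TRIBE library.

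Aats-glupro, the fused enzyme for glutamate and proline, had the opposite balance in numbers of sites. It had 4 and 1 sites with Hrp48 HyperTRIBE and 11 with FMRP HyperTRIBE, 8 of them in neither Hrp48 library. At those 8 sites, 10.8% to 17.3% of 26 to 52 reads were edited with FMRP, not far above the listing minimum. Whether they were edited below that minimum in the Hrp48 libraries was not tested. The site at 19778162 of chromosome 3R, listed in both Hrp48 libraries, had 29.8% and 12.5% there and 14.6% with FMRP. The first Hrp48 library had 25.8% at 19783404 and 15.6% at 19781729, where FMRP had 31.0% and 13.2%. Aats-gln had 1 and 0 sites with Hrp48 HyperTRIBE and 2 with FMRP. Aats-glupro and Aats-gln were the 2 of 17 Aats- genes with more sites with FMRP than in either Hrp48 library. Among genes of all kinds, 3.24% of 5150 had that pattern. Both Aats- genes were picked after their values were seen.

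**Figure D4:**
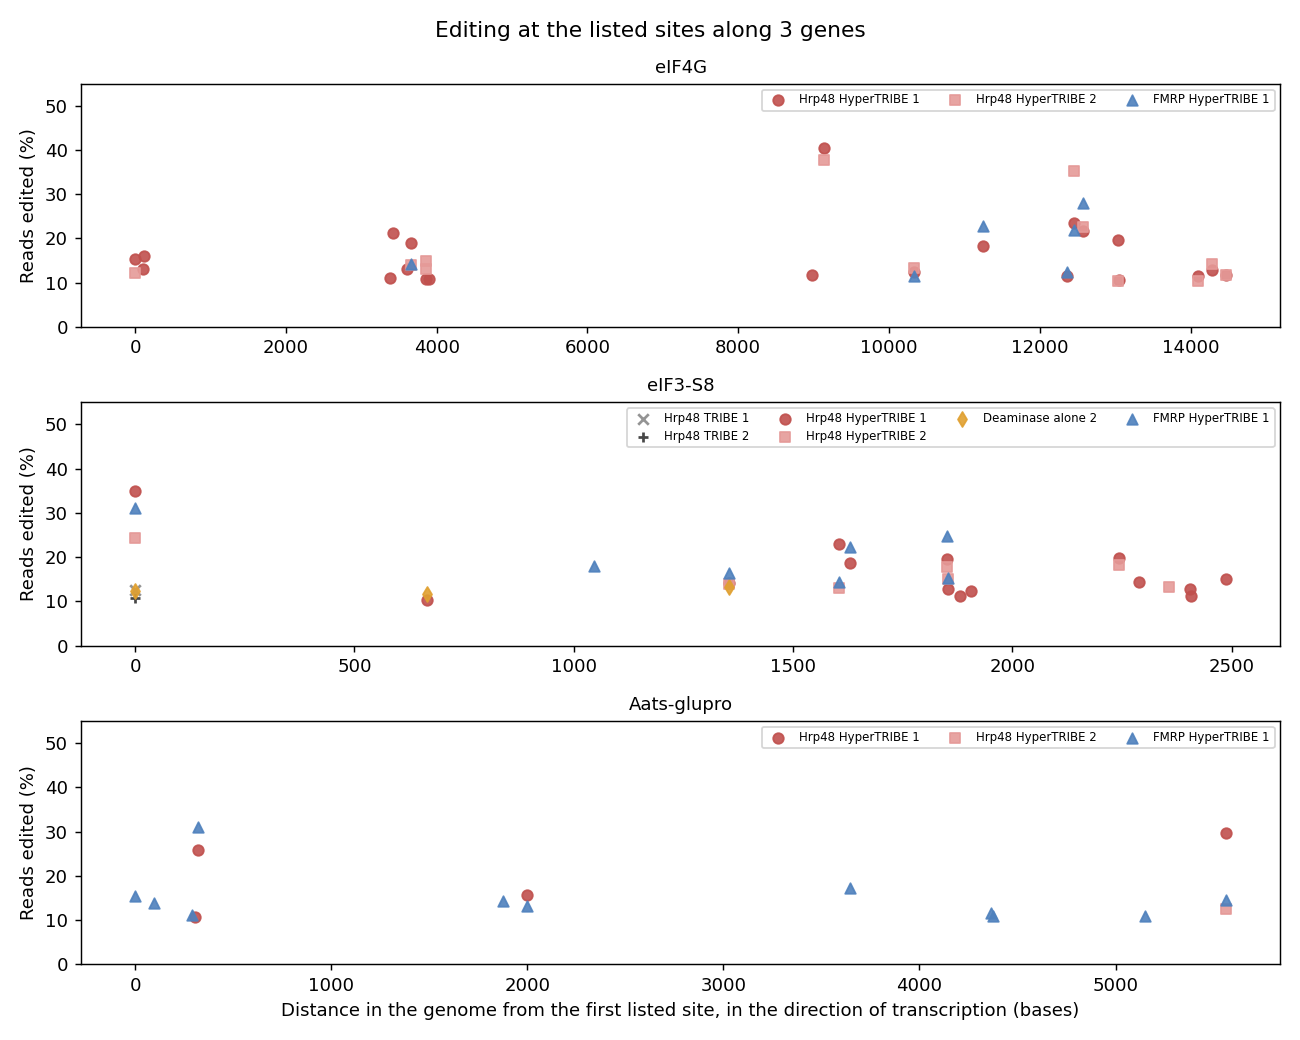
Percent of reads edited at the listed sites of eIF4G, eIF3-S8 and Aats-glupro against distance in bases from the first listed site in the direction of transcription, by library. eIF4G has points of both Hrp48 HyperTRIBE libraries in separate clusters with long gaps between them, and Aats-glupro has 11 FMRP HyperTRIBE points and 5 of Hrp48 HyperTRIBE.

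FMRP HyperTRIBE listed many of the same member sites as Hrp48 HyperTRIBE. Of the 105 member sites listed in both Hrp48 HyperTRIBE libraries, 48 were listed with FMRP (45.7%, Wilson 95% interval 36.5 to 55.2%), beside 20.4% of 10851 such sites of all genes. For factor genes the share was 43.5% of 69 and for Aats- genes 50% of 36. Member sites had more reads than the rest, with medians of 62 and 72 in the 2 libraries beside 36 and 47, and among sites with at least 50 reads in both libraries, an alternative chosen after seeing the data, the share was 56.1% of 66 beside 24.9% of 2820. FMRP and its library number cannot be told apart here, and expression levels were not tested. The intervals cover counting error only, and sites of a gene are not independent. Of the 105, 11.4% were listed with either TRIBE library, beside 12.9% of all genes' sites, and 5.71% with the deaminase alone, beside 1.34%.

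**Figure D5:**
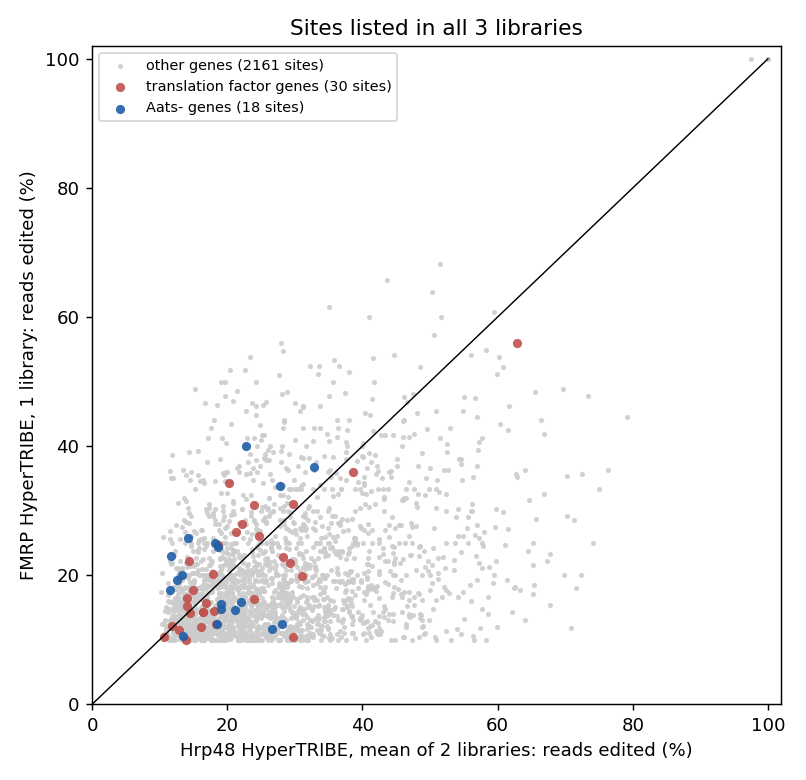
Percent of reads edited with FMRP HyperTRIBE (1 library) against the mean of the 2 Hrp48 HyperTRIBE libraries at the 2209 sites listed in all 3, with the line of equal editing. The 30 factor sites and 18 Aats- sites lie on both sides of the line, 19 of the 48 with FMRP above both Hrp48 libraries and 18 below both.

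At the 48 member sites listed in all 3 HyperTRIBE libraries, FMRP values fell to both sides of the Hrp48 values. FMRP was above both Hrp48 libraries at 19 of 48, beside 19.8% of 2209 sites, and below both at 18, beside 60.5%. The median difference, Hrp48 HyperTRIBE minus FMRP HyperTRIBE, was 0.02 log2 odds over the members, 0.07 over factor sites and -0.34 over Aats- sites, beside 0.50 over all 2209. limma with Benjamini-Hochberg adjustment over 2209 sites, taking the 1 FMRP library to vary like the Hrp48 ones, called 0 member sites higher with Hrp48 HyperTRIBE (3.17% of all sites) and 0 lower (0.0453%). At an unadjusted p under 0.05 it found 3 higher, beside 22.5% of all sites, and 1 lower, beside 2.94%. Fisher's exact test on reads pooled by construct, adjusted over the same 2209 sites, also called 0 member sites higher and 0 lower, beside 9.82% and 0.905% of all sites. At an unadjusted p under 0.05 that test found 4 and 3, beside 19.6% and 2.4%. Because it takes every read as a separate molecule and ignores how libraries of a construct vary, it covers counting error only. The limma intervals of single sites reach from -2.51 to 3.0 log2 odds, so a call of 0 does not show equal editing. This fit uses the same Hrp48 libraries as the comparison with TRIBE.

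The 4 unadjusted differences were in eIF2B-beta, Aats-trp, Aats-asp and Aats-thr. At position 2599383 of chromosome X, eIF2B-beta had 35.2% and 24.2% with Hrp48 HyperTRIBE and 10.3% with FMRP (1.77 log2 odds, adjusted p = 0.0891 by limma). Aats-trp at 5091677 of 3R had 27.3% and 26% against 11.7%, and Aats-asp at 8769065 of 2R had 31.7% and 24.4% against 12.5%. In these 3 both Hrp48 values were above the FMRP value, and in Aats-thr, the threonine enzyme, the order was reversed, with 12.9% and 10.3% against 23.0% at 12105494 of 2L. With only sites of at least 50 reads in every library, limma called these 4 (3 higher and 1 lower of 35), beside 27.6% higher and 1.61% lower of 558.

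The other genes of translation numbered 35. Of these, 20 were factors and regulators chosen by name, and all 20 had a listed site. The other 15 were found among the listed genes by their current symbols, 6 of them synthetases, so that they are listed follows from the choice. The 35 genes include further eIF3 subunits, so the numbers by complex above cover only the genes of the name rule. The Hrp48 HyperTRIBE sites of the 35 genes numbered 205 and 173, beside 10 and 6 in the TRIBE libraries, 0 and 15 with the deaminase alone and 99 with FMRP HyperTRIBE. PEK, an eIF2alpha kinase, had 32 and 27 with Hrp48 HyperTRIBE, and Lk6, which phosphorylates eIF4E, had 20 and 18. Lk6 alone had 9 of the 15 deaminase-alone sites.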

How the data were processed

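For each edited site the authors deposited read counts of the 4 bases, the edited and total reads and the percent edited. Alignment tools appear in the submitters' processing notes as Picard 2.8.2 and TopHat2 2.1.1, with build dm3 and no roles. Strand came from a second set of deposited base counts, of which the sources used here do not give the origin. Reads per base were checked to sum to the total in all but 1 of 52199 lines.

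Members and gene lists were chosen with earlier results of these data known. Named genes were those with a site in all 4 Hrp48 libraries, the 10 factor and 8 Aats- genes with most sites in both Hrp48 HyperTRIBE libraries, and those with deaminase-alone or both-TRIBE sites; all other members are given to account for each gene and were named after their values were seen. Of the 44 names, 5 were current symbols, 38 older and 1 unmatched (eIF4G).

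limma 3.58.1 in R 4.3.3 was used, with Python 3.11.15. The fit against TRIBE gave every site the same SE. The fits were tested on simulated reads with and without added variation between libraries. With it, the Hrp48 TRIBE fit recovered only a minority of large changes and the FMRP fit recovered none. The real FMRP fit called 70 of 2209 sites higher and 1 lower. Its simulation changed only a small part of the sites, by set amounts. These calls therefore cannot show whether the simulated recovery holds for the real data. The real spread of the TRIBE fit was nearer to the setting with added variation. Alternatives were other offsets, scales, read minimums, weights, tests and left-out libraries.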

Additional observations from a re-analysis of the deposited data

How the results depend on the processing

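Numbers of sites kept their direction under every read minimum, editing minimum, overlap and left-out library tried. In the fit against Hrp48 TRIBE, 0 member sites were called higher without either Hrp48 HyperTRIBE library, and leaving out each library in turn gave 0 to 4. eIF3-S8 lost its call on the arcsine scale (adjusted p = 0.0632), and eIF-5A gained one with 50 reads or more (0.0331), with weights by reads (0.0046), by Fisher's exact test on pooled reads (0.00132) and without the first TRIBE library (0.00561). The fit with the replicate number as a block called 3 higher and 0 lower, as without it. Deviations from the construct mean were not correlated between same-numbered libraries (correlation -0.01 over 298 sites, 2 pairs). A correlation across sites cannot show a shift common to all sites, so it does not settle whether the numbers pair the libraries. The main fit did not pair them. Against FMRP, a minimum of 50 reads per library gave 3 higher and 1 lower in place of 0 and 0; without 1 Hrp48 library no test could be made. Over sites of any Hrp48 HyperTRIBE library, the share of factor sites listed with TRIBE was 7.10%, beside 5.70% of all genes' sites; with FMRP it was 21.9% for factor and 31.0% for Aats- sites, beside 10.4%. With at least 50 reads in both, the factor share with FMRP was 57.8%, beside 24.9%. The causes were not tested.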
